A study of Mus musculus with 2 samples.

Results

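Condensin and the other SMC (structural maintenance of chromosomes) genes were examined as targets of NRF1 in CH12.LX, an immortalized mouse line from a B-cell lymphoma. The 10 genes were Smc1a, Smc2, Smc3, Smc4, Smc5, Smc6, Ncapg, Ncapg2, Ncapd2 and Ncaph, of 20560 protein-coding genes with a transcription start site (TSS) that could be used. They were chosen by name from a survey of the same peak lists, in which the Ncapg2 and Smc4 peaks were among the strongest, so their peak calls and signals are given as a description without a test. The line is labelled female, with strain B10.H-2aH-4bp/Wts. Chromatin immunoprecipitation with an antibody to NRF1 was sequenced in 2 biological replicates, numbered 1 and 2, which form 1 group with no treatment and no other cell type. Both libraries derive from the same line and the labels do not say whether the cultures were grown apart, so the spread between them may be technical. The control library was not analysed here. Peak lists carry no expression values, so the B-cell label was not checked against marker genes.

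NRF1 (nuclear respiratory factor 1) binds GC-rich promoter DNA and is best known as an activator of genes in the nucleus whose products work in mitochondria. SMC proteins are long ATPases that pair up and, closed by a kleisin subunit, form rings that hold or fold DNA. Condensin, built on Smc2 and Smc4, compacts chromosomes for mitosis, cohesin, built on Smc1a and Smc3, holds sister chromatids together and shapes chromatin loops, and the complex of Smc5 and Smc6 acts in DNA repair and replication.

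The sequences under the peaks are shown first. No sequence was used to choose the genes, but strong peaks were among the reasons for the choice. Over all peaks of the mm9 set, stronger peaks matched more letters of the NRF1 consensus, so the match is not independent of the choice. The consensus is a 10-bp element with GCGC at both ends and an A followed by a pyrimidine in the middle. Both strands were searched within 50 bp of the summits of the mm9 peak set, in the NCBIM37 genome. The best match lay at chr12:117643684-117643693 (plus strand) for Ncapg2, chr2:126959694-126959703 (plus) for Ncaph, chr19:23348427-23348436 (plus) for Smc5, chr12:11272705-11272714 (plus) for Smc6, chrX:148450865-148450874 (minus) for Smc1a and chr19:53675420-53675429 (plus) for Smc3. The capitals mark the 10 bp of the match, with 10 bases on either side.
Ncapg2: cagcagctctGCGCCTGCGCatcccgtgag
Ncaph: ggtctttggtGCGCCTGCGCaggccgccta
Smc5: cggccccgatGCGCTTGCGCggttccgccc
Smc6: ggccgggcagACGCATGCGTagacctgttg
Smc1a: tgcccggctgGAGCACGCGCtgggcgctca
Smc3: aggtcgcgtcGCGCCTGCTCactcggttgt

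Positions are counted from 1 at the 5′ end of the consensus, with its base first. At sites with equal matches the differences are those of the plus strand. Read on the other strand, the Ncaph site differs by Y6G, where Y is the pyrimidine. Ncapg2 and Ncaph carried the same 10-bp site, with the difference A5C, and Smc5 differed at the same position by A5T. Smc1a differed by C2A. Smc6 had a pair of differences at the outer bases, G1A and C10T, and Smc3 had A5C and G9T. The Smc6 site fell in an annotated UTR of Smc6 and the Smc3 site in an intron of Smc3, while those of Ncapg2, Ncaph, Smc5 and Smc1a lay outside annotated exons and introns. At Smc4 all 10 letters matched, at chr3:68808785-68808794 in an annotated UTR of Smc4, with the centre of the site 4.5 bp from the summit. The Ncapd2 peak held at best 7 letters.

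The promoters of Ncapg2 and Ncaph, a strong peak with a 9-letter site in each, are set beside that of Smc2, the only one of the 10 genes without a selected peak. The bases are those upstream of the outermost start of the gene in the promoter sequences of RefSeq (GRCm38.p6), on the strand of the gene. Ncapg2 spans chr12:116405186-116405350 (plus strand, 165 bases, 14 CpG, 69.7% GC), Ncaph chr2:127133955-127134204 (minus, 250 bases, 19 CpG, 60.0% GC) and Smc2 chr4:52438971-52439220 (plus, 250 bases, 16 CpG, 51.6% GC). The capitals mark the best match to the consensus on either strand.
Ncapg2: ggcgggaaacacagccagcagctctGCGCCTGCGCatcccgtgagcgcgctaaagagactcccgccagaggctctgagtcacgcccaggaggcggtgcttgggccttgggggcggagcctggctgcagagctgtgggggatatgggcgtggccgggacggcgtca
Ncaph: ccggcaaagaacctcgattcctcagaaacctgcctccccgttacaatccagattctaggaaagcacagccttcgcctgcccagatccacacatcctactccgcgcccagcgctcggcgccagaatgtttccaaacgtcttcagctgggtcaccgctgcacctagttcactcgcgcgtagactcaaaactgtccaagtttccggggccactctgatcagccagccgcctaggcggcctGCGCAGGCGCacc
Smc2: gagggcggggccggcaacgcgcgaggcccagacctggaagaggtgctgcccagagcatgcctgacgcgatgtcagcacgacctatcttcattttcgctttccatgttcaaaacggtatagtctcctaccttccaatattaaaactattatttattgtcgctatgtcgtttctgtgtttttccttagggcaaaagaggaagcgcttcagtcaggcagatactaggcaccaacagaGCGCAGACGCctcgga

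In Ncapg2 the match stood at bases 26 to 35 with 9 letters, and in Ncaph at bases 238 to 247 with 9 letters, where the strand of the gene reads the reverse complement of the site shown above. The best match of the Smc2 promoter stood at bases 235 to 244 with 8 letters. The 3 promoters therefore differ in the letters matched and in GC content, with Smc2 lowest in both, and all 3 hold CpG. A best match of 8 letters is not particular to Smc2. Among genes with a selected peak, the RefSeq promoter sequences of Smc6, Smc3 and Ncapd2 also matched 8 letters, that of Ncapg 7 and that of Smc5 6. The Smc5 sequence belongs to a start farther than 1000 bp from its summit.

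Of the 10 genes, 9 had an NRF1 peak of the optimal set with its summit within 1000 bp of the TSS and are called occupied, and Smc2 had none. Over all 20560 protein-coding genes 37.6% were occupied by the same rule. The optimal set holds 17547 peaks on chromosomes 1 to 19 and X, which the authors selected by a threshold on the irreproducible discovery rate. A high rank in each replicate was not required, since the Ncapg peak of this set ranked 22282 in replicate 1. In the conservative set of 15936 peaks 8 of the 10 genes were occupied, without Ncapg, against 36.3% of all genes. Within 500 bp of the TSS the count was 9, against 34.5% of all genes, and within 2000 bp it was 9, against 40.0%. Among the 8773 optimal peaks of higher signal 7 of the 10 genes remained occupied, without Smc3 and Ncapg, against 27.6% of all genes. The 9 genes are therefore not alike in strength. Their signals ran from 22.3 at Ncapg to 682 at Ncapg2, close to the highest of the set, 703.

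Condensin is built on the ATPases Smc4 and Smc2, which lay at opposite ends of the range. The Smc4 peak, at chr3:69004680-69005040 of mm10, had a signal of 330 in replicate 1 and 353 in replicate 2, a mean of 342 ± 16.6 (SD, n = 2). It ranked 51 of 299936 peaks in the relaxed list of replicate 1 and 10 of 299924 in that of replicate 2, lists that hold peaks together with background. In the optimal set it ranked 12 with a signal of 678. Its summit lay 128 bp downstream of the TSS. For Smc2, whose TSS lies at chr4 position 52439221, the relaxed lists held a peak of signal 9.18 in replicate 1 and 7.94 in replicate 2, a mean of 8.56 ± 0.877 (SD, n = 2). These peaks ranked 19165 and 23816, with summits 229 and 26 bp downstream of the TSS. The values of the Smc2 peaks were alike in both libraries and far below those of Smc4. The nearest summit of the optimal set lay 572637 bp from the Smc2 start.

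The subunits of condensin I, besides these ATPases, are the kleisin Ncaph and the HEAT-repeat proteins Ncapd2 and Ncapg. The Ncaph peak (chr2:127133773-127134127) had a signal of 319 in replicate 1 and 316 in replicate 2, and 632 in the optimal set, where it ranked 204. Its summit lay 2 bp downstream of the TSS, the nearest of the 9 peaks. The Ncapd2 peak (chr6:125191691-125191880) had a signal of 89.2 in replicate 1 and 70.4 in replicate 2, and 162 in the optimal set, where it ranked 3998. At 190 bp it was narrower than the median promoter peak, 344 bp. The Ncapg peak (chr5:45669999-45670342) had a signal of 8.21 in replicate 1 and 12.8 in replicate 2, and 22.3 in the optimal set, where it ranked 12813. The subunits of condensin I thus had peaks near both ends of the range of the 9. The strongest relaxed peak overlapping it had its summit 272 bp downstream of the TSS in replicate 1 and 110 bp downstream in replicate 2, where a weaker relaxed peak lay within 50 bp of the optimal summit. Its replicate 1 rank of 22282 was beyond the number of optimal peaks.

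Ncapg2, the HEAT-repeat subunit that takes the place of Ncapg in condensin II, had a peak at the top of the range together with that of Smc4. The peak at chr12:116405047-116405403 had a signal of 350 in replicate 1, the highest of that list, and 337 in replicate 2, where it ranked 67. The mean was 343 ± 9.0 (SD, n = 2) and the optimal signal 682, rank 8. The summit lay 138 bp upstream of the TSS. Replicate means of the paralogues Ncapg2 and Ncapg were thus 343 and 10.5, and their replicate values did not overlap. The Ncapg2 peak was known to be among the strongest when the genes were chosen, so nothing further is read from this difference.

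Smc5 and Smc6, the ATPases of the complex named after them, both had peaks above the median of all promoter peaks. The Smc6 peak (chr12:11265755-11266224) had a signal of 215 in replicate 1 and 216 in replicate 2, and 430 in the optimal set, where it ranked 2083. It was the widest of the 9 peaks at 470 bp, with a summit 36 bp downstream of the TSS. The Smc5 peak (chr19:23273807-23274063) had a signal of 171 in replicate 1 and 131 in replicate 2, and 301 in the optimal set, where it ranked 2907. Its mean of 151 ± 28.5 (SD, n = 2) was below that of Smc6 in both libraries. The Smc5 summit lay 23 bp upstream of the outermost start of the gene. With the start of the RefSeq promoter sequence in place of the outermost start, it lay beyond 1000 bp, and Smc5 was not occupied.

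The cohesin ATPases had weaker peaks. The Smc1a peak (chrX:152016163-152016506) had a signal of 56.9 in replicate 1 and 55.6 in replicate 2, and 111 in the optimal set, rank 4770, with its summit 93 bp upstream of the TSS. Smc3 was the only one of the 10 genes with more than 1 optimal promoter peak. The stronger one (chr19:53600743-53601086) lay 519 bp downstream of the TSS with a signal of 25.4 in replicate 1 and 12.1 in replicate 2, and 35.8 in the optimal set, rank 9101. The weaker one (chr19:53599827-53600170) lay 397 bp upstream of the TSS with a signal of 13.4 in replicate 1 and 13.8 in replicate 2, and 28.2 in the optimal set. The order of the Smc3 peaks therefore differed between the replicates, with the downstream peak higher in replicate 1 and the upstream peak higher in replicate 2.

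**Figure D1:**
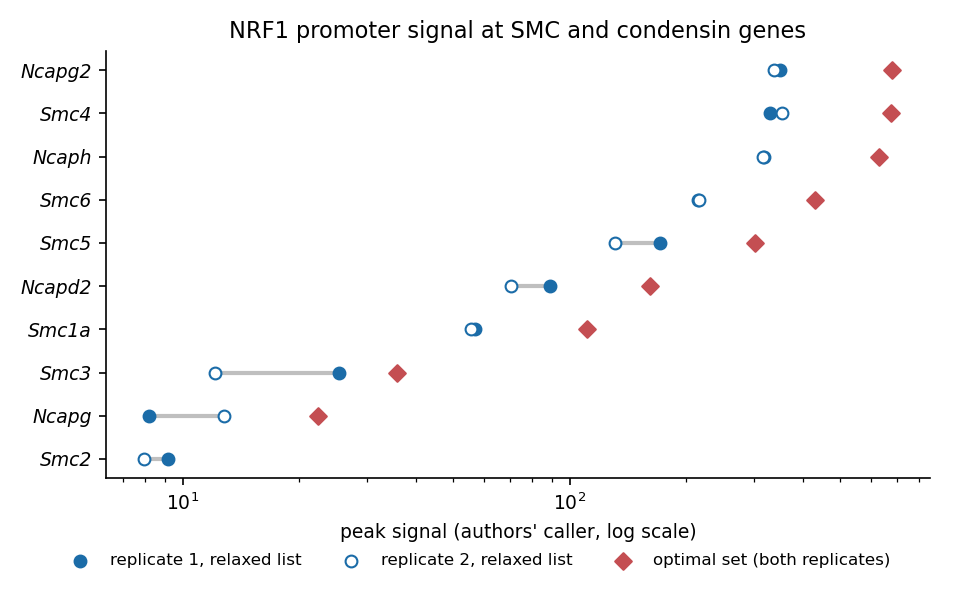
Peak signal of the 10 genes on a log axis, in the relaxed list of replicate 1 (filled circles), the relaxed list of replicate 2 (open circles) and the optimal set (diamonds), with genes in order of the replicate mean. Signals run from Ncapg2 at 350 and 337 to Smc2 at 9.18 and 7.94, which has no diamond, and the replicates are farthest apart in proportion at Smc3.

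Ordered by the mean of the replicates, the genes ran Ncapg2, Smc4, Ncaph, Smc6, Smc5, Ncapd2, Smc1a, Smc3, Ncapg and Smc2. Of neighbours in that order, the replicate values overlapped for Ncapg2 and Smc4, for Smc3 and Ncapg, and for Ncapg and Smc2, and did not overlap for the other neighbours. With 2 libraries no order within the overlapping pairs can be given. The ratio of the replicate 2 signal to the replicate 1 signal was between 0.764 and 1.07 in 7 of the 9 occupied genes, with Smc3 at 0.476 and Ncapg at 1.56. Its median over the 9 was 0.977, and over 8131 promoter peaks with a value in both lists 0.932, with quartiles of 0.715 and 1.06. In proportion the replicates thus differed most at Smc3. Summits of the 9 peaks moved by a median of 1 bp in replicate 1 and 10 bp in replicate 2, against 5 and 6 bp over all promoter peaks.

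The median optimal signal of the 9 peaks was 301, and that of all 8218 promoter peaks was 61.4 with quartiles of 29.0 and 336. Of the 9, 7 lay above the median promoter peak, and Smc3 and Ncapg below it. Among promoter peaks Ncaph stood at the percentile 98.1, Smc6 at 80.5, Smc5 at 73.6, Ncapd2 at 65.6, Smc1a at 60.6, Smc3 at 33.0 and Ncapg at 16.1. Since strong peaks were among the reasons for the choice of the genes, nothing is read from this excess.

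**Figure D2:**
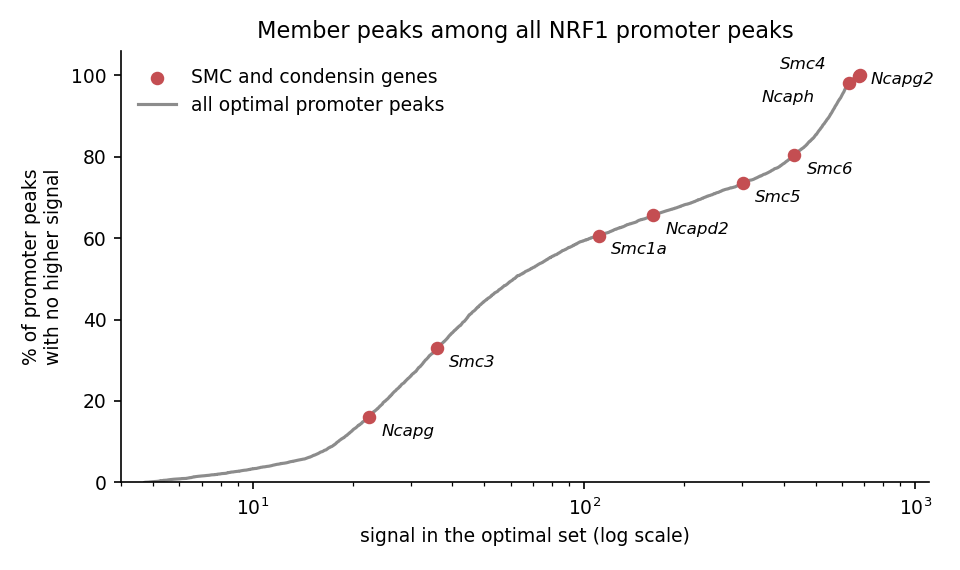
Share of all 8218 optimal promoter peaks with no higher signal (vertical axis, %) against signal in the optimal set (log axis), with the 9 occupied SMC and condensin genes as points on the grey curve of all promoter peaks. Ncapg2, Smc4 and Ncaph sit at the top of the curve, Smc6, Smc5, Ncapd2 and Smc1a between 60.6 and 80.5%, and Smc3 and Ncapg at 33.0 and 16.1%.

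Summits lay close to the starts, at a median distance of 128 bp for the 9 genes and 91 bp over all 7734 occupied genes. Those of Ncapg2, Smc5 and Smc1a were upstream of the outermost start, and those of Smc4, Ncaph, Smc6, Ncapd2, Smc3 and Ncapg downstream. The side depends on the start used at Smc4 and Ncapd2. Their mm9 peaks lay at -98 and -188 bp from the nearest GENCODE start, where negative is upstream. At 4 of the 9 genes the peak also lay within 1000 bp of the start of a neighbour on the opposite strand, and over all optimal promoter peaks 13.5% lay near more than 1 protein-coding start. The neighbours were Ift80, of intraflagellar transport, 58 bp from the Smc4 start, and Gen1, a Holliday junction resolvase, 143 bp from the Smc6 start. Mrpl51, of the large subunit of the mitochondrial ribosome, started 100 bp from Ncapd2, and Ribc1 started 458 bp from Smc1a. By the outermost starts, the summit lay 128 bp from Smc4 and 186 bp from its neighbour, and 36 and 107 bp for the Smc6 pair. The distances were 307 and 407 bp for the Ncapd2 pair and 93 and 551 bp for the Smc1a pair. The SMC or condensin gene was thus the nearer in each pair. The share over all shared promoter peaks is not given, so nothing is read from this. The Smc6 summit lay between the outermost starts of its pair, and those of Smc4, Ncapd2 and Smc1a lay outside the interval between the outermost starts. For Smc4 and Ncapd2 this does not carry over to the GENCODE starts given above. Which gene of a pair a peak acts on was not tested.

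**Figure D3:**
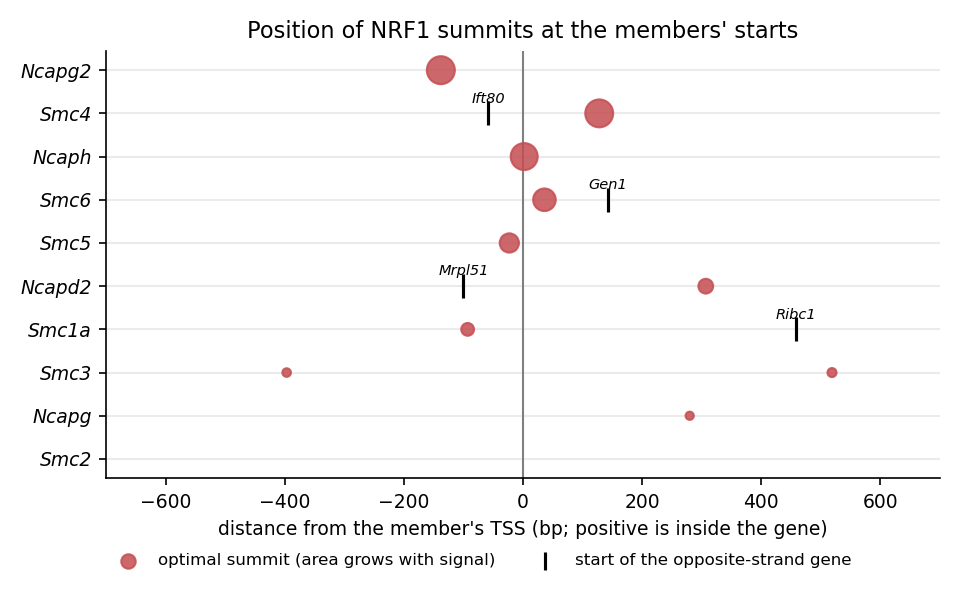
Distance of optimal summits from the TSS of each gene in bp (positive inside the gene), with point area growing with signal and black ticks at the start of the opposite-strand neighbour. Most summits sit within 307 bp of the start, the Smc3 pair flanks its start at 519 and -397 bp, and Smc2 has no summit.

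Among the 8 mm9 peaks at these genes, the exact consensus was found in 1, at Smc4, against 8.80% of all 11216 mm9 peaks. At least 9 of its 10 letters were found in 5, at Smc4, Ncapg2, Ncaph, Smc5 and Smc1a, against 34.0% of all mm9 peaks. Ncapg and Smc2 had no mm9 promoter peak. Over all mm9 peaks the median signal was 1978 with the exact consensus (987 peaks), 537 with 9 letters (2823 peaks), 103 with 8 letters (3236 peaks) and 54.9 with 7 or fewer (4170 peaks). Since strong peaks were among the reasons for the choice of the genes, nothing is read from their counts of matches. The strongest of the 8 peaks, that of Ncapg2, did not hold the exact consensus. Ncapg2, with a signal of 5288, and Ncaph, with 4322, lay above the upper quartile of the 9-letter peaks, 2232, whereas Smc5, with 587, was near their median and Smc1a, with 167, below it. Smc4, with 4027, lay between the median and the upper quartile of 4351 among exact sites. Smc6, with 1480, was above the upper quartile of 329 of the 8-letter peaks, and Smc3, with 39.7, below their lower quartile of 54.8. Ncapd2, with 232, exceeded the upper quartile of 92.0 of the peaks with the fewest letters. The number of letters matched thus left wide differences of signal among these genes.

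**Figure D4:**
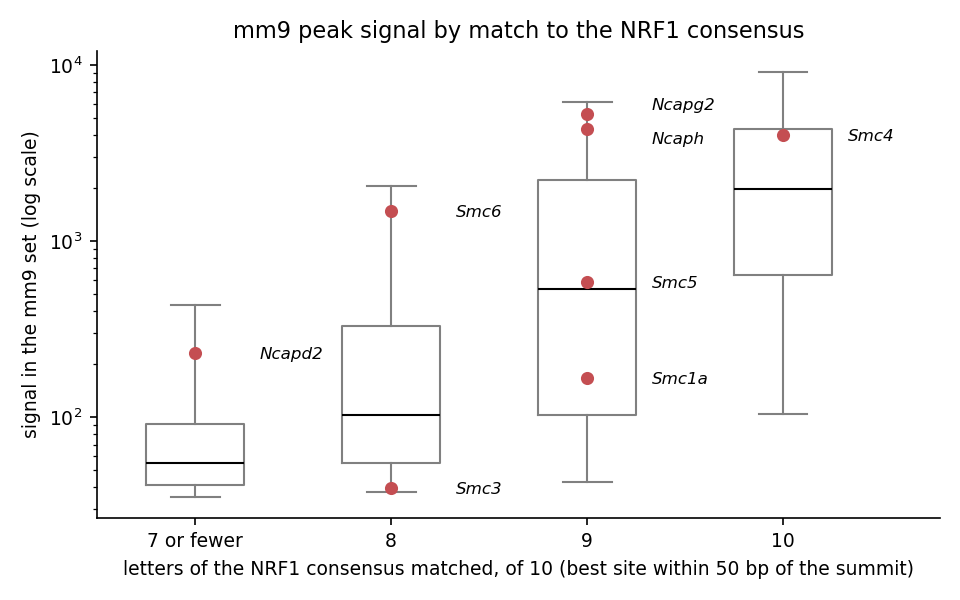
Signal of mm9 peaks (log axis) by the number of consensus letters matched within 50 bp of the summit, with boxes from quartile to quartile, a line at the median, whiskers at the percentiles 5 and 95, and red points for the 8 SMC and condensin genes with an mm9 peak. Medians rise from 54.9 at 7 or fewer letters to 1978 at 10, and Ncapg2, Ncaph, Smc6 and Ncapd2 sit above the box of their class.

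The 10-bp site shared by Ncapg2 and Ncaph was found within 50 bp of 745 mm9 summits, 6.64% of all, whose median signal was 2240. The Smc5 site was found at 171 summits with a median signal of 2012, and the Smc5 peak itself was lower. The Smc6 site was found at 42 summits with a median of 988, and the Smc6 peak was higher. The Smc1a site was found at 47 summits with a median of 167, which is the value of the Smc1a peak itself. The Smc3 site was found at 57 summits with a median of 169, and the Smc3 peak, at 39.7, was lower. Of all mm9 peaks, 1.52% held the Smc5 site, 0.374% the Smc6 site, 0.419% the Smc1a site and 0.508% the Smc3 site. In each of the 6 sequences shown, the centre of the site lay between 10.5 and 27.5 bp from the summit.

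The promoter sequences of RefSeq held an entry for 9 of the 10 genes. At least 9 letters of the consensus were present in 3 of these 9 promoters of 300 bases, those of Ncaph, Ncapg2 and Smc1a, against 9.75% of all 32619 promoter sequences. None of the 9 held the exact consensus, against 2.29% of all. The matches of Ncapg2, Smc1a, Ncaph and Smc6 lay 2.5, 8.5, 10.5 and 18.5 bp from the mm10 optimal summit, so the same sites were found on both builds without converting coordinates. The best matches of Ncapd2, Smc3 and Ncapg, with 8, 8 and 7 letters, lay 110.5, 375.5 and 448.5 bp from their summits.

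The mm9 set was made from the same libraries and is not a further replicate. Its order of the genes differed from that of the optimal set at 1 place, with Ncaph (rank 583) before Smc4 (rank 653). Ncapg2 ranked 412, Smc6 1861, Smc5 2848, Ncapd2 4004, Smc1a 4522 and Smc3 10009. In this set 8 of the 10 genes were occupied with GENCODE starts, against 33.1% of all genes. Among as many peaks of highest signal as the optimal set holds, 8 of the 10 genes were occupied in replicate 1, without Ncapg, against 38.8% of all genes. In replicate 2 the count was 9, against 37.5%. With RefSeq promoter starts, 7 of 9 genes were occupied, against 40.2% of all genes with such a start.

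Ncapg and Smc2 lie on either side of the selection of the optimal set, though their order differed between the replicates. In replicate 1 the Smc2 peak was the higher, at 9.18 against 8.21. In replicate 2 the Ncapg peak was the higher, at 12.8 against 7.94. In the relaxed list of the pooled replicates the Smc2 peak had a signal of 13.7 and ranked 24112. Of the 7223 pooled peaks within 10% of that signal, 527 were in the optimal set, and of the 2653 pooled peaks within 10% of the Ncapg signal, 1813 were. Of the 24111 pooled peaks stronger than that of Smc2, 16175 were in the optimal set. Peaks of the strength of that at Smc2 were thus mostly not selected. The depth of the libraries is unknown, so NRF1 at Smc2 is reported as not selected rather than as absent.

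The wider list of the 3 complexes and the regulators of cohesin held 38 genes with a usable TSS, the 10 genes included. Of these 23 were occupied in the optimal set, against the 37.6% of all genes given above. The 23 include 9 of the 10 genes chosen with their peaks known, which raises the count, so nothing is read from the comparison. Occupied were 7 of 8 condensin genes, with a median signal of 442, and 6 of 8 genes of the Smc5 and Smc6 complex, with a median of 366. Of the cohesin subunit genes 3 of 9 were occupied, with a median of 54.9, and of the cohesin regulators 7 of 13, with a median of 68.7. The difference between complexes was not tested, and 6 of the 8 condensin genes are among the 10 genes chosen with their peaks known. Peaks farther than 1000 bp inside a gene do not enter these counts and medians. Outside the 10 genes the 14 occupied genes had a median signal of 90.7, from 19.2 to 603. Within condensin the other subunits of condensin II were the HEAT-repeat protein Ncapd3, at 442, and the kleisin Ncaph2, at 41.8, so its 3 specific subunits spanned from 41.8 to the 682 of Ncapg2. Those of condensin I spanned from 22.3 at Ncapg to 632 at Ncaph.

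Among optimal peaks within 1000 bp of the outermost start, Smc1a had the strongest of the cohesin subunits and Smc3 the weakest. Smc1b, Rad21l, Rec8 and Stag3, subunits of the meiotic forms, were unoccupied in both the optimal and the mm9 set. The mitotic kleisin gene Rad21 and the HEAT-repeat subunit gene Stag1 were unoccupied at the outermost RefSeq start. They had optimal peaks of signal 628 and 570 at 1649 and 45670 bp inside the gene, and both were occupied with the GENCODE starts of the mm9 set. Their mm9 signals of 10687 and 2082 were above the 167 of Smc1a. Among the regulators the strongest peak within 1000 bp of the outermost start was that of Pds5b, at 603, and the weakest that of Espl1 (separase, which cleaves the kleisin), at 24.2. Nipbl, Wapl, Hdac8, Sgo1, Sgo2a and Pttg1 were unoccupied, of which Wapl and Sgo1 had optimal peaks of signal 516 and 615 at 1446 and 1919 bp inside the gene. The strongest optimal peaks inside Nipbl and Sgo2a were weaker, at 47.5 and 25.4, and lay 19784 and 10643 bp from the start. Hdac8 and Pttg1 had none inside the gene. With the GENCODE starts of the mm9 set, Nipbl, Wapl, Sgo1 and Sgo2a were occupied, and Hdac8, Pttg1 and Espl1 were not. In the complex of Smc5 and Smc6 the strongest peak was that of Nsmce3, a subunit of the MAGE family, at 541, and the weakest that of Slf1, at 19.2. Nsmce2, the SUMO ligase of the complex, and Slf2 were unoccupied in the optimal set. Nsmce2 was occupied in the conservative set and among the highest peaks of both replicates, with signals of 11.4 in replicate 1 and 13.1 in replicate 2. In the mm9 set Slf2 was occupied and Slf1 was not. In the mm9 set, where both the peaks and the starts differ, the counts were 6 of 8 for condensin, 6 of 8 for the Smc5 and Smc6 complex, 5 of 9 for cohesin subunits and 10 of 13 for cohesin regulators. Whether the peaks or the starts moved these counts cannot be told apart for the whole list.

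**Figure D5:**
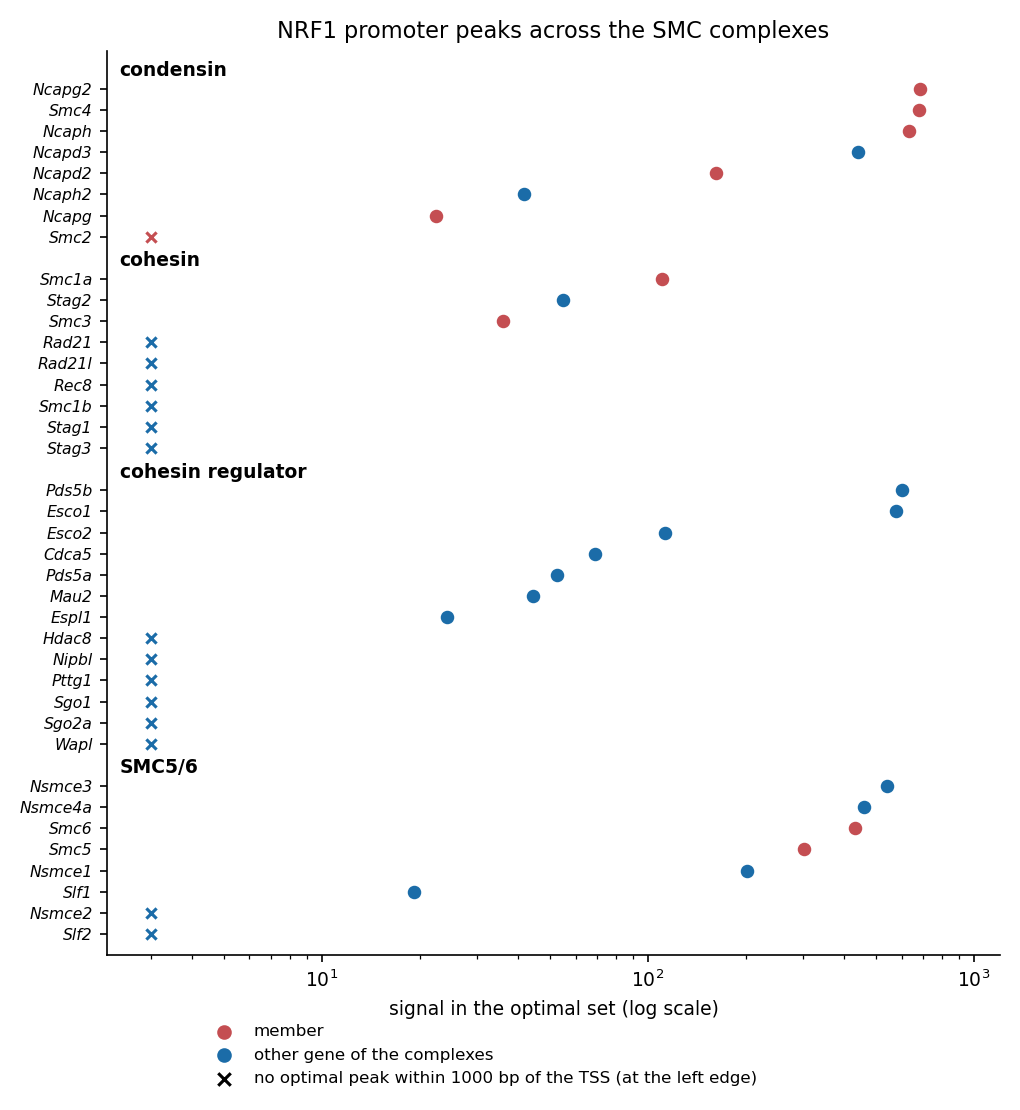
Optimal signal (log axis) of the 38 genes grouped by complex, with the 10 SMC and condensin genes in red, other genes in blue, and crosses at the left edge for genes with no optimal peak within 1000 bp of the TSS. Condensin has 1 cross of 8 genes, the cohesin subunits 6 of 9, the cohesin regulators 6 of 13, and the complex of Smc5 and Smc6 2 of 8.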

How the data were processed

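NRF1 peaks were called from chromatin immunoprecipitation libraries of 2 replicates of CH12.LX. Per the notes deposited beside the peak lists, the authors called relaxed lists on mm10 per replicate and on the pool, each with a control, selected conservative and optimal sets from them, and made an mm9 set from both replicates. The signal column of the deposited lists is the value of the authors' caller, and its scale differs between lists. Ranks were therefore compared within a list. Means, SDs and ratios over the replicates nevertheless use the signals of the 2 relaxed lists without rescaling. The median ratio of replicate 2 to replicate 1 over promoter peaks was 0.932, and a difference in scale is not separated from the spread. Depth is unknown, since read numbers, like the aligner, the caller and its thresholds, are not given in the sources at hand.

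Starts were the outermost 5′ ends of RefSeq GRCm38.p6 protein-coding genes, with strand from GENCODE vM1 by symbol (18377 genes) or synonym (2183). The 1067 genes without a match, Eid3 among them, were not analysed here. Of 16519 genes that could be checked against the promoter sequences, 16472 (99.7%) had the same strand. When a promoter held several peaks, the strongest was used. A replicate peak overlapped the optimal peak by at least 1 bp. The plan assumed a genome of the build of the optimal set. Since the genome at hand was NCBIM37, motif searches used the mm9 set and, on mm10, the RefSeq promoter sequences.

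All 10 genes are named, with each gene whose start shares their peak and, from the wider list, the strongest, weakest and unoccupied genes of each complex. Ncapd3 and Ncaph2 were named after their values were seen. The genes and lists were chosen with earlier results of these data known, and no test was run. Python 3.11.15, pandas 2.3.3 and numpy 2.4.6 were used, and the motif search and peak assignment were tested on simulated data. Alternatives were other peak sets, windows, starts, single replicates and motif settings.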

Additional observations from a re-analysis of the deposited data

How the results depend on the processing

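The count of occupied genes stayed between 7 and 9 under all 8 alternatives, and that of the wider list between 19 and 27, with 23 as reported. The RefSeq promoter starts were chosen after seeing the data. The median percentile of the occupied genes in the optimal set was 83.4. It was 82.6 without replicate 1 and 85.8 without replicate 2, where Ncapg had no peak among the highest, and 79.0 in the mm9 set, which covers 8 of the genes. The count of peaks with the consensus was 1 of 8, also within 25 or 100 bp of the summit, and 5 with up to 1 mismatch. All 9 peaks overlapped a relaxed peak of each replicate, 8 had a relaxed summit of each replicate within 50 bp, without Smc3, and 8 were among the highest peaks of each list, without Ncapg. Over all 8218 promoter peaks, 8131 overlapped a relaxed peak of each replicate, and shares for the other counts are not given. The optimal set was itself derived from both replicates, so nothing particular to these genes is read from the counts. No paired analysis was possible because the libraries form 1 group. Weak peaks such as those of Smc3, Ncapg and Smc2 rest on signals for which the read depth is unknown, and start sites are limited to 1 per gene.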
